A study of Mus musculus with 16 samples.

Results

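The 10 genes described here are 7 genes of protein folding in the endoplasmic reticulum (Hspa5, Hsp90b1, Calr, Canx, Pdia3, Pdia4 and Pdia6) and 3 transcription factors of its stress response (Xbp1, Atf4 and Ddit3). They were chosen by gene symbol: every probe of the array whose platform symbol is one of these names was taken. This gave 11 of 25697 probes, because Ddit3 has 2 probes and each other gene has 1. Of these, 10 probes of 9 genes were detected and tested, among 13884 tested probes of 9429 genes in all. The Canx probe was detected on 0 of 16 arrays and was not tested.

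RNA was measured after immunoprecipitation from cytoplasmic extracts of C2C12 cells, a mouse myoblast line that leaves the cell cycle and fuses into myotubes when serum is reduced. The 4 groups of 4 arrays each were anti-MYF5 precipitates of cells in differentiation medium with horse serum (DM_MYF5), control IgG precipitates of the same kind of extract (DM_IgG), anti-MYF5 precipitates of subconfluent cells in growth medium with fetal bovine serum (GM_MYF5), and control IgG precipitates of those (GM_IgG). MYF5 is known as a transcription factor that commits cells to muscle, and the comparison of anti-MYF5 with IgG asks which RNAs the antibody recovers. All 16 arrays come from 1 cell line with no genetic change named in the labels, which give neither the time in differentiation medium nor whether replicates were separate cultures, so the p-values measure only the spread between these samples. The RNA of the extracts before precipitation was not analysed here, so in a comparison of the media a changed amount of an RNA in the cells and a changed recovery of it cannot be told apart, nor can fewer cells of a type and less RNA per cell.

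The endoplasmic reticulum folds proteins that enter the secretory pathway. When unfolded proteins gather there, the sensors IRE1, PERK and ATF6 start the unfolded protein response: IRE1 splices the Xbp1 mRNA, PERK lowers general translation while Atf4 mRNA is translated more, and ATF6 is cut into an active factor. The transcription factors made in this way raise the folding machinery, and Ddit3 (CHOP) is induced when the stress lasts. In C2C12 cells a passing phase of this response is known to accompany differentiation. The deposited signals report the amount of each mRNA on an array, and neither the splicing of Xbp1 nor the translation of Atf4.

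Of the 10 genes, 5 share a known stress motif in their promoters, and all 5 are folding genes. The endoplasmic reticulum stress element, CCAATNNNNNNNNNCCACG, is the site through which ATF6 with NF-Y acts on chaperone genes. It was searched on both strands in the 300 bases around each gene start in RefSeq's promoters (250 before and 50 after, GRCm38.p6), where all 10 genes had an entry. It was present in 39 of 32851 promoters (0.119%), in those of Hspa5, Hsp90b1, Calr, Canx and Pdia6, and in none of the 3 factors'. The element is known from chaperone genes, so its presence in these members is a description and no test. The stretches of the 4 measured genes are shown because they hold the letters that these folding genes share. Capitals mark the CCAAT and CCACG ends of the element, or ATTGG and CGTGG where it lies on the other strand.
Hspa5 (chr2:34772005-34772063, plus strand): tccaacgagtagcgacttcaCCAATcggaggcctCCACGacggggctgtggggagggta
Hsp90b1 (chr10:86705513-86705676, minus strand): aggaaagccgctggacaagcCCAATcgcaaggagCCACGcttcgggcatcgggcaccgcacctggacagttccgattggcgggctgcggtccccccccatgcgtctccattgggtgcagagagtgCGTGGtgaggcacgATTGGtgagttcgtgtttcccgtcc
Calr (chr8:84847055-84847113, minus strand): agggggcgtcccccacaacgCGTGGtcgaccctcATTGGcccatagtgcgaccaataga
Pdia6 (chr12:17266471-17266529, plus strand): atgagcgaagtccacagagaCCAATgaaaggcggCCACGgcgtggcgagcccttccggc
The Hspa5 element lay closest to the gene start, 47 to 65 bases upstream, and Hsp90b1 held 2 elements in opposite orientation. The promoters of Pdia3 and Pdia4 had no match in this window. Of 3 further stress motifs, ERSE-II (ATTGGNCCACG) was in 0.0365% of all promoters, the UPR element (TGACGTGG) in 0.676% and TGATGNAA, the core of the C/EBP-ATF response element that ATF4 dimers bind, in 3.97%, and each in 0 of the 10 members' promoters.

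Mean signal per array was 324 to 581 intensity units, and 46.4% to 50.9% of probes were detected. Myoblast and myotube markers fitted the labels: Myod1, Des, Itga7 and Acta1 were detected on every array, and Myog, Ckm, Actc1, Tnnt3 and Mymk in addition on all DM arrays. The Myf5 probe itself was too seldom detected to be tested. The summed signal of the 10 markers on the array was 45817 to 59421 in DM_MYF5, 68872 to 79029 in DM_IgG, 3563 to 6226 in GM_MYF5 and 4651 to 5817 in GM_IgG. Of the markers of other cell types, Lpl and Pparg were detected on all arrays of every group, Hba-a1 in both growth medium groups and in neither DM group, and Alpl, Bglap, Sp7 and Cdh1 in some groups. The summed signal of the 6 adipocyte markers was 984 to 1410 in DM_MYF5 and 939 to 1157 in DM_IgG, and 1608 to 2452 in GM_MYF5 and 1040 to 1451 in GM_IgG, without overlap in growth medium. That of the blood markers was 371 to 411 in DM_MYF5 and 403 to 435 in DM_IgG, and 508 to 588 in GM_MYF5 and 879 to 1040 in GM_IgG. Hba-a1, a hemoglobin gene, fell by 2.30 on the log2 scale with anti-MYF5 in growth medium and was lower in differentiation than in growth medium, by log2 differences of -2.35 in MYF5 and -4.06 in IgG precipitates, all called by limma. The part of these markers in the results below was not tested. The log2 gap between 2 probes annotated to Actb averaged 2.60 ± 0.76 in DM_MYF5, 4.72 ± 0.81 in DM_IgG, 3.93 ± 0.52 in GM_MYF5 and 6.41 ± 1.54 in GM_IgG (SD, n = 4 each), so these probes of 1 gene were read in unequal proportion in the groups. It ranged from 1.75 to 3.41 in DM_MYF5 and 3.84 to 5.61 in DM_IgG, without overlap, and from 3.34 to 4.53 in GM_MYF5 and 4.20 to 7.61 in GM_IgG. The gap thus goes with the antibody, and a fit with it as a covariate cannot fully tell the 2 apart.

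**Figure D1:**
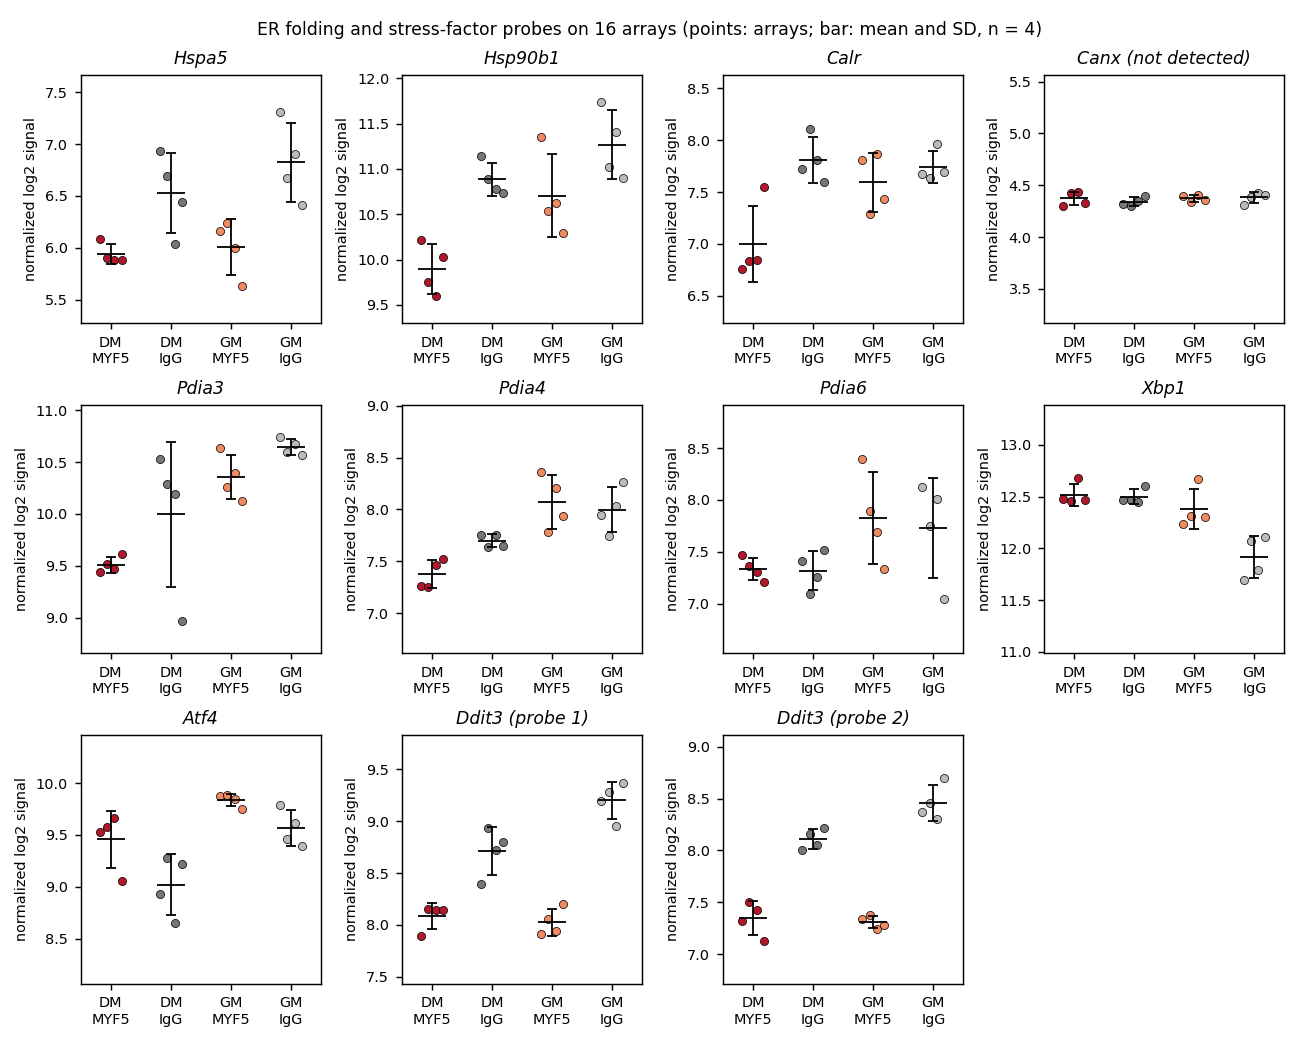
Normalized log2 signal (vertical axes) of the 11 probes on 16 arrays, by group from left to right DM_MYF5, DM_IgG, GM_MYF5 and GM_IgG. Points are arrays and bars show mean and SD (n = 4 per group). Both Ddit3 probes lie lower in every MYF5 array than in every IgG array, Xbp1 is lowest in GM_IgG, and Canx stays at the undetected level.

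With anti-MYF5, the folding genes were recovered less than with IgG or without a called difference, and the factors went different ways. In differentiation medium Hsp90b1, Calr and Hspa5 fell 1.98-fold, 1.76-fold and 1.51-fold below IgG, Ddit3 fell 1.55-fold, and Atf4 rose 1.35-fold. In growth medium Ddit3, Hspa5 and Hsp90b1 fell 2.26-fold, 1.76-fold and 1.48-fold, and Xbp1 rose 1.38-fold. Thus 4 of 9 tested members were lower and 1 higher in differentiation medium, where 26.6% of all tested genes were lower and 27.7% higher. In growth medium 3 were lower and 1 higher, against 22.4% lower and 26.3% higher of all tested genes. A gene is called higher or lower where limma's adjusted p (Benjamini-Hochberg over all tested probes) is under 0.05. The median log2 change of the 6 tested folding genes was -0.54 in differentiation medium and -0.22 in growth medium, beside 0.02 and 0.04 over all tested genes. In growth medium that median depended on the scaling: it was 0.06 with median scaling and 0.19 without scaling, where all genes had medians of 0.19 and 0.32, so that it was -0.13 relative to all genes under both. The growth medium calls were then 2 higher (Xbp1 and Atf4) and 2 lower (Hspa5 and Ddit3) with median scaling, and 3 higher (Xbp1, Atf4 and Pdia4) and 1 lower (Ddit3) without scaling. The scaling moved the calls of all 9429 tested genes too, to 3092 higher and 1142 lower with median scaling and 3740 higher and 776 lower without scaling.

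**Figure D2:**
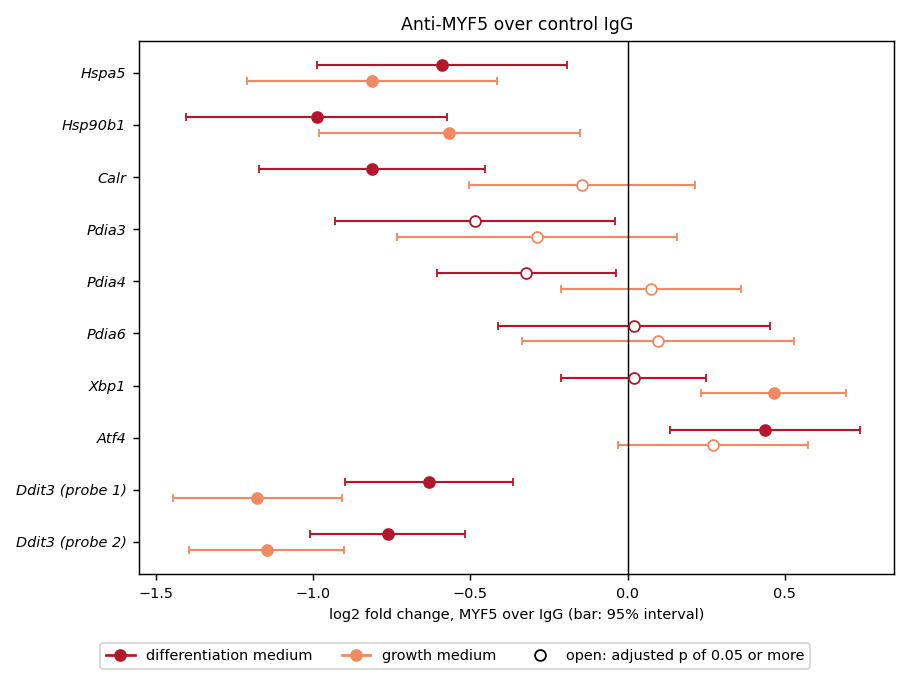
Log2 fold change of MYF5 over IgG (horizontal axis) for the 10 tested probes, in differentiation medium (upper point of each pair) and growth medium (lower point). Bars are 95% intervals from limma, and open points have an adjusted p of 0.05 or more. Ddit3, Hspa5 and Hsp90b1 lie left of 0 in both media, and Xbp1 and Atf4 are called higher in 1 medium each.

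Hspa5 encodes BiP, the HSP70 chaperone of the endoplasmic reticulum that also holds the stress sensors inactive (probe ILMN_1255561). The uncorrected Hspa5 signals were low, 94.2 to 183.5 intensity units, where the undetected Canx probe had 50.5 to 68.5. Their Hspa5 means were 119.6 with anti-MYF5 and 148.8 with IgG in growth medium, and 105 and 146 in differentiation medium. Its normalized log2 signals were, in differentiation medium, 6.08, 5.90, 5.88 and 5.88 with anti-MYF5, against 6.93, 6.69, 6.04 and 6.44 with IgG. In growth medium they were 6.17, 6.24, 5.997 and 5.63 with anti-MYF5, against 7.31, 6.67, 6.90 and 6.41 with IgG. The groups separated in growth medium, while in differentiation medium 1 IgG array lay among the MYF5 arrays. The log2 change was -0.59 (SE 0.19, limma adjusted p = 0.013) in differentiation medium and -0.81 (adjusted p = 0.0013) in growth medium. The exact two-sided permutation p was 0.0571 in differentiation medium and 0.0286 in growth medium, and 0.0286 is the smallest that 4 against 4 arrays allow. Without DM_IgG replicate 1 the change in differentiation medium was -0.46 (limma adjusted p = 0.063), and with the Actb probe gap as a covariate the changes were -0.21 (adjusted p = 0.45) and -0.37 (adjusted p = 0.22) in differentiation and growth medium. The growth medium change was -0.43 (adjusted p = 0.15) without scaling. Between media Hspa5 did not pass the test: DM over GM was -0.07 in MYF5 precipitates (95% interval -0.47 to 0.32) and -0.29 in IgG precipitates (-0.69 to 0.10).

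Hsp90b1 encodes GRP94, the HSP90 chaperone of the endoplasmic reticulum, which folds integrins and insulin-like growth factors (probe ILMN_2504433). Its log2 signals were, in differentiation medium, 10.22, 9.75, 9.60 and 10.02 with anti-MYF5, against 11.14, 10.88, 10.78 and 10.73 with IgG. The corresponding growth medium signals were 11.36, 10.54, 10.63 and 10.29 with anti-MYF5, against 11.74, 11.02, 11.41 and 10.90 with IgG. Every DM_MYF5 array lay below every array of the other 3 groups, and the growth medium groups overlapped. The change with anti-MYF5 was -0.99 (SE 0.20, limma adjusted p = 0.00027, exact permutation p = 0.0286) in differentiation medium and -0.57 (adjusted p = 0.023, exact permutation p = 0.114) in growth medium. The growth medium call was lost without GM_MYF5 replicate 2, 3 or 4 and without GM_IgG replicate 1 or 3, with changes of -0.41 to -0.54 and adjusted p of 0.051 to 0.1, and the change was -0.09 with the Actb probe gap as a covariate. This call was also lost with median scaling (-0.34, limma adjusted p = 0.34) and without scaling (-0.21, adjusted p = 0.59). In MYF5 precipitates Hsp90b1 was 1.75-fold lower in differentiation than in growth medium (log2 -0.80, adjusted p = 0.0015). In IgG precipitates the log2 difference was -0.38 (95% interval -0.80 to 0.03).

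Calreticulin (Calr) is a soluble lectin chaperone that holds glycoproteins during folding and binds calcium (probe ILMN_2861176). Its log2 signals were, in differentiation medium, 6.76, 6.84, 6.85 and 7.55 with anti-MYF5, against 7.72, 8.11, 7.81 and 7.60 with IgG. Those in growth medium were 7.81, 7.28, 7.86 and 7.43 with anti-MYF5, against 7.67, 7.64, 7.96 and 7.70 with IgG. The DM groups did not overlap, although the fourth DM_MYF5 array lay close to the lowest DM_IgG array, and the growth medium groups overlapped. The change with anti-MYF5 was -0.81 (SE 0.17, limma adjusted p = 0.00046, exact permutation p = 0.0286) in differentiation medium and -0.15 in growth medium (95% interval -0.50 to 0.21). In MYF5 precipitates Calr was 1.51-fold lower in differentiation than in growth medium (log2 -0.60, adjusted p = 0.005), and in IgG precipitates the difference was 0.07 (95% interval -0.29 to 0.43). Its membrane-bound partner calnexin (Canx, probe ILMN_2632083) had signals of 50.5 to 68.5 intensity units and was not above background on any array, so its level is not known here.

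The 3 protein disulfide isomerases form and rearrange disulfide bonds: Pdia3 (ERp57) works with the lectin chaperones, Pdia4 (ERp72) has an additional active domain, and Pdia6 (P5) works with BiP. Pdia3 (probe ILMN_2736875) had log2 signals of 9.44, 9.51, 9.47 and 9.62 in DM_MYF5 and 10.53, 10.29, 10.19 and 8.97 in DM_IgG. In growth medium it had 10.63, 10.26, 10.40 and 10.13 with anti-MYF5 and 10.74, 10.60, 10.67 and 10.57 with IgG. The fourth DM_IgG array lay far below the other 3 of its group, under all DM_MYF5 arrays. With it the MYF5 over IgG change in differentiation medium was -0.49 (SE 0.21, limma adjusted p = 0.062), and without it -0.83 (adjusted p = 1.5e-05). The growth medium change was -0.29 (adjusted p = 0.28), and the same change had an adjusted p of 0.04 in the fit without that array. Pdia3 was lower in differentiation than in growth medium, 1.80-fold in MYF5 precipitates (log2 -0.85, adjusted p = 0.0018) and 1.57-fold in IgG precipitates (log2 -0.65, adjusted p = 0.012). Neither pair of groups overlapped, and without the fourth DM_IgG array the IgG difference was -0.31 (adjusted p = 0.036). The IgG call was lost with median scaling (-0.49, limma adjusted p = 0.098) and without scaling (-0.39, adjusted p = 0.22).

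Pdia4 (probe ILMN_1249670) had log2 signals of 7.26, 7.26, 7.47 and 7.52 in DM_MYF5 and 7.75, 7.64, 7.76 and 7.65 in DM_IgG. The growth medium arrays read 8.36, 7.78, 8.20 and 7.94 with anti-MYF5 and 7.95, 7.74, 8.03 and 8.27 with IgG. All DM_MYF5 arrays lay below all other arrays, by a small margin to DM_IgG. The MYF5 over IgG change in differentiation medium was -0.32 (SE 0.14), with an exact permutation p of 0.0286 but a limma adjusted p of 0.054, and it fell under 0.05 in 8 of 28 alternatives. In growth medium the change was 0.07 (95% interval -0.21 to 0.36). In MYF5 precipitates Pdia4 was 1.62-fold lower in differentiation than in growth medium (log2 -0.69, limma adjusted p = 0.00017), a call that held in all 28 alternatives. In IgG precipitates the difference was -0.30 (adjusted p = 0.065).

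Pdia6 (probe ILMN_2489360) showed no called difference between anti-MYF5 and IgG. Its log2 signals averaged 7.34 ± 0.11 in DM_MYF5 and 7.32 ± 0.19 in DM_IgG (SD, n = 4 each). In growth medium they averaged 7.83 ± 0.44 with anti-MYF5 and 7.73 ± 0.48 with IgG, with a wider spread than in differentiation medium. The changes were 0.02 (95% interval -0.41 to 0.45) in differentiation medium and 0.10 (-0.34 to 0.53) in growth medium. With the Actb probe gap as a covariate they were 0.57 (limma adjusted p = 0.028) and 0.74 (adjusted p = 0.011). Pdia6 was 1.40-fold lower in differentiation than in growth medium in MYF5 precipitates (log2 -0.49, adjusted p = 0.046), which held in 11 of 28 alternatives and moved to -0.30 (adjusted p = 0.21) without GM_MYF5 replicate 1. The IgG difference was -0.41 (adjusted p = 0.088).

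Xbp1 encodes the factor that IRE1 activates by splicing its mRNA (probe ILMN_2431237). In differentiation medium its log2 signals were 12.47, 12.45, 12.68 and 12.46 with anti-MYF5, against 12.47, 12.47, 12.44 and 12.61 with IgG. In growth medium they were 12.23, 12.32, 12.67 and 12.31 with anti-MYF5, against 11.70, 12.07, 11.79 and 12.11 with IgG. The GM_IgG arrays were the lowest and did not overlap with any other group, and both DM groups covered nearly the same range. Xbp1 was 1.38-fold higher with anti-MYF5 in growth medium (log2 0.46, SE 0.11, limma adjusted p = 0.0014, exact permutation p = 0.0286), while in differentiation medium the change was 0.02 (95% interval -0.21 to 0.25). The growth medium change was 0.24 (adjusted p = 0.18) with the Actb probe gap as a covariate, and the deposited z-scores also gave no call. In IgG precipitates Xbp1 was 1.495-fold higher in differentiation than in growth medium (log2 0.58, adjusted p = 0.0001), a call that held in all 28 alternatives. In MYF5 precipitates that difference was 0.14 (95% interval -0.09 to 0.36).

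Atf4 encodes the factor whose translation increases when PERK is active (probe ILMN_1223734). In differentiation medium its log2 signals were 9.52, 9.58, 9.67 and 9.05 with anti-MYF5, against 8.93, 9.28, 8.65 and 9.22 with IgG. In growth medium they were 9.87, 9.88, 9.85 and 9.75 with anti-MYF5, against 9.79, 9.46, 9.61 and 9.40 with IgG. In differentiation medium 3 MYF5 arrays lay above all IgG arrays and the fourth among them. The change with anti-MYF5 was 0.44 (SE 0.15, limma adjusted p = 0.015, exact permutation p = 0.0857) in differentiation medium and 0.27 (adjusted p = 0.13) in growth medium. The call in differentiation medium was lost without DM_MYF5 replicate 3 (0.37, adjusted p = 0.061) and without DM_IgG replicate 3 (0.31, adjusted p = 0.08), and with median scaling (0.34, adjusted p = 0.23). Atf4 was lower in differentiation than in growth medium, 1.30-fold in MYF5 precipitates (log2 -0.38, adjusted p = 0.028) and 1.46-fold in IgG precipitates (log2 -0.55, adjusted p = 0.0025), without overlap of the media in either. The IgG call was lost with median scaling (-0.37, limma adjusted p = 0.16) and without scaling (-0.27, adjusted p = 0.37). The MYF5 difference was -0.25 (adjusted p = 0.13) without DM_MYF5 replicate 4, and without GM_MYF5 replicate 1, 2 or 3 its adjusted p was 0.051 to 0.057.

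Ddit3 encodes CHOP, a factor linked to cell death under lasting stress, and it was the member with the largest MYF5 over IgG change in growth medium. Its first probe (ILMN_2652909) read 7.89, 8.16, 8.14 and 8.14 in DM_MYF5 and 8.40, 8.94, 8.73 and 8.80 in DM_IgG. The same probe read 7.91, 8.05, 7.94 and 8.20 in GM_MYF5 and 9.20, 9.29, 8.96 and 9.37 in GM_IgG. All 8 MYF5 arrays lay below all 8 IgG arrays, and among the IgG arrays those in growth medium were highest. The log2 change with anti-MYF5 was -0.63 (SE 0.13, limma adjusted p = 0.0003) in differentiation medium and -1.18 (adjusted p = 1.8e-07) in growth medium, each with an exact permutation p of 0.0286. The second probe (ILMN_2927373) read 7.32, 7.51, 7.43 and 7.13 in DM_MYF5 and 8.004, 8.16, 8.05 and 8.22 in DM_IgG. In growth medium it read 7.34, 7.38, 7.24 and 7.28 in GM_MYF5 and 8.37, 8.46, 8.30 and 8.70 in GM_IgG. It separated the groups in the same way, with changes of -0.76 (adjusted p = 1.5e-05) and -1.15 (adjusted p = 8e-08). Both media's calls held in all 28 alternatives for the first probe, with changes of -0.81 to -0.53 in differentiation medium and -1.38 to -0.79 in growth medium. In IgG precipitates Ddit3 was 1.40-fold lower in differentiation than in growth medium by the first probe (log2 -0.49, adjusted p = 0.0024) and 1.27-fold by the second. By the first probe this call was lost with median scaling (-0.30, limma adjusted p = 0.15) and without scaling (-0.20, adjusted p = 0.43). In MYF5 precipitates that difference was 0.06 (95% interval -0.21 to 0.33) by the first probe.

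The difference between the media in MYF5 over IgG was itself tested and was called for 0 of the 9 members, against 5.77% of all tested genes by limma. Calr, Xbp1 and Ddit3 are described because their unadjusted limma p was under 0.05. The share of all tested genes at that threshold was not counted, so their number is no result about the members. Calr had a DM minus GM difference of -0.67 (SE 0.24, adjusted p = 0.11), Xbp1 -0.45 (adjusted p = 0.098) and Ddit3 0.55 (adjusted p = 0.081). The 95% intervals were -1.18 to -0.16 for Calr, -0.77 to -0.12 for Xbp1 and 0.17 to 0.92 for Ddit3. These differences depended on the scaling, which moved the median over all genes to -0.27 with median scaling and -0.38 without scaling, from 0.01. Calr was at -1.03 (adjusted p = 0.038) with median scaling and -1.14 (adjusted p = 0.03) without scaling. Xbp1 was at -0.76 (adjusted p = 0.038) and -0.87 (adjusted p = 0.037) under the same settings, and Ddit3 at 0.21 (adjusted p = 0.63) and 0.10 (adjusted p = 0.82). Relative to the median of all genes under these 2 settings, the differences were -0.76 for Calr, -0.49 for Xbp1 and 0.48 for Ddit3. Calr also passed the threshold with the deposited z-scores, with array weights and without DM_MYF5 replicate 4 (-0.85, adjusted p = 0.019), in 5 of 28 alternatives. Xbp1 also passed with array weights and without GM_IgG replicate 4 (-0.51, adjusted p = 0.04), in 4 of 28, and Ddit3 passed in 3 of 28, among them array weights (0.58, adjusted p = 0.022) and the Actb probe gap as a covariate (0.58, adjusted p = 0.036). For Atf4 the difference was called in 0 of 28 alternatives.

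Of the 6 tested folding genes, 5 were lower in differentiation than in growth medium in MYF5 precipitates and 1 in IgG precipitates. The gap between these 2 comparisons is the difference of differences given above, which was called for 0 members. In MYF5 precipitates Hsp90b1, Calr, Pdia3, Pdia4, Pdia6 and Atf4 were lower, 6 of 9 members, and 0 were higher, against 32.7% lower and 28.9% higher of all tested genes. In IgG precipitates Pdia3, Atf4 and Ddit3 were lower and Xbp1 higher, against 34.0% lower and 29.5% higher of all tested genes. The median of the 6 folding genes was -0.65 in MYF5 and -0.34 in IgG precipitates, beside -0.06 over all tested genes in both. In IgG precipitates that median was 0.0047 without scaling, where all genes had a median of 0.19. With median scaling and without scaling Xbp1 alone of the members was called there, and 7 were called without GM_IgG replicate 4. All 9429 tested genes then split into 3067 higher and 2032 lower with median scaling, 3296 and 1495 without scaling, and 2857 and 3283 without that array. In MYF5 precipitates 4 folding genes were lower with median scaling, cyclic loess, no scaling or the deposited z-scores, and Pdia6 lost its call. Lower genes among all 9429 tested numbered 3100, 2759, 2878 and 2893 under these 4 settings. The MYF5 over IgG comparison in differentiation medium and DM over GM in MYF5 precipitates share the DM_MYF5 arrays. With the Actb probe gap as a covariate, the folding median was -0.58 in MYF5 and -0.03 in IgG precipitates. In MYF5 precipitates Pdia6 was then at -0.15 (limma adjusted p = 0.48), Atf4 at -0.35 (adjusted p = 0.067) and Hsp90b1 at -0.55 (adjusted p = 0.018), and Calr, Pdia3 and Pdia4 were still called lower. In IgG precipitates Hsp90b1 was at -0.06 (adjusted p = 0.82) and Pdia4 at -0.41 (adjusted p = 0.03), and Pdia3, Atf4, Ddit3 and Xbp1 were still called. The muscle and blood markers also differed between the media, and their part in these differences was not tested.

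**Figure D3:**
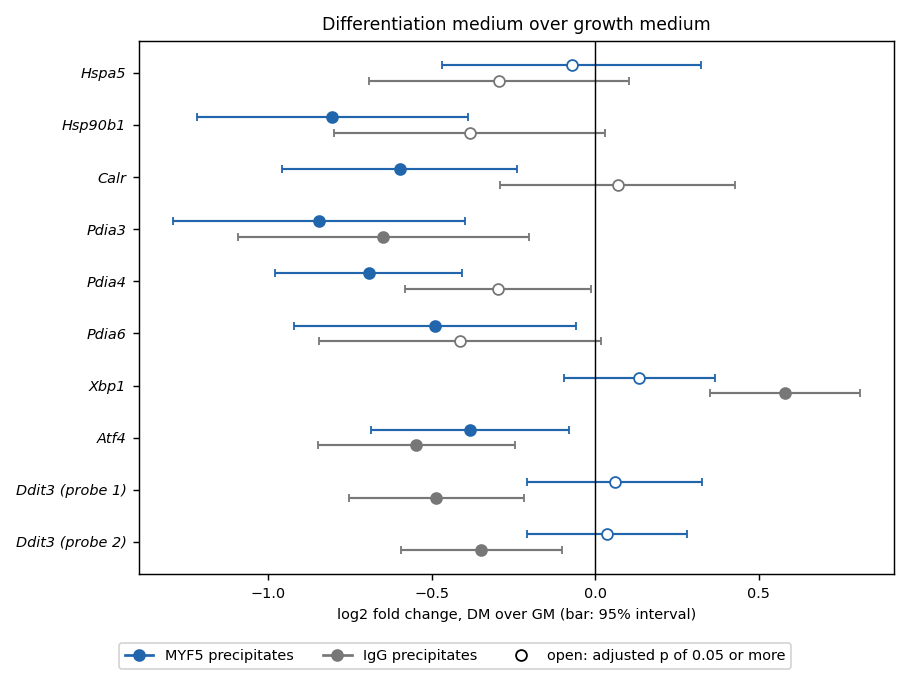
Log2 fold change of differentiation over growth medium (horizontal axis) for the 10 tested probes, in MYF5 precipitates (upper point of each pair) and IgG precipitates (lower point). Bars are 95% intervals from limma, and open points have an adjusted p of 0.05 or more. Hsp90b1, Calr, Pdia3, Pdia4, Pdia6 and Atf4 are called lower in MYF5 precipitates, and Xbp1 is the only probe called higher, in IgG precipitates.

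The remaining machinery was described with 7 further lists of endoplasmic reticulum and stress genes, 105 genes in all, of which 96 were on the array and 88 were tested. In anti-MYF5 against IgG precipitates 31 were called higher and 25 lower for differentiation medium, and 30 higher and 28 lower for growth medium. Over all tested genes 27.7% were higher and 26.6% lower for differentiation medium, and 26.3% and 22.4% for growth medium, which are also the shares to set beside each list's counts. The medians were 0.06 and 0.07, close to those of all tested genes. In growth medium the split was 33 higher and 15 lower with median scaling and 40 higher and 10 lower without scaling. Of all 9429 tested genes 3092 were then higher and 1142 lower with median scaling, and 3740 higher and 776 lower without scaling. Between media, 17 were higher and 43 lower in MYF5 precipitates, with a median of -0.30, against 28.9% higher and 32.7% lower of all tested genes. In IgG precipitates 13 were higher and 50 lower, with a median of -0.41, against 29.5% and 34.0% of all tested genes. This split was 16 and 29 with median scaling and 17 and 17 without scaling. Of all 9429 tested genes 3067 were then higher and 2032 lower with median scaling, and 3296 higher and 1495 lower without scaling.

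**Figure D4:**
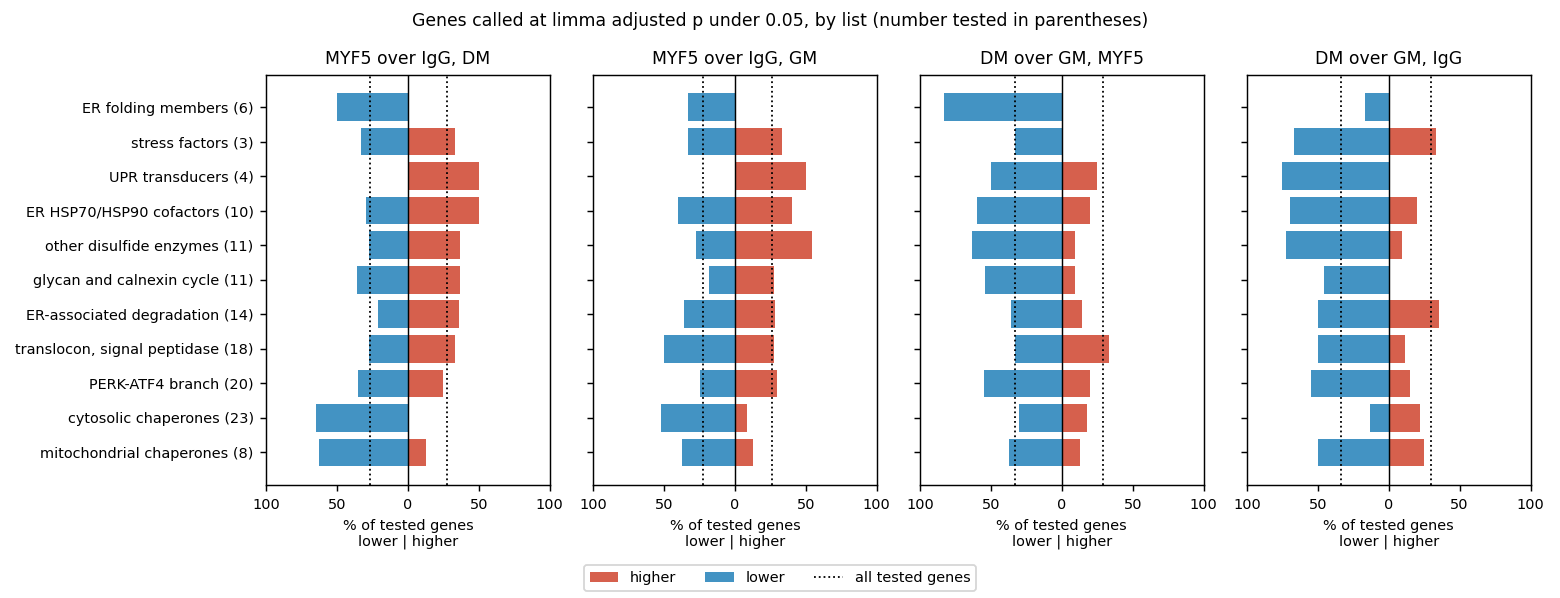
Share of tested genes called higher (right of 0) and lower (left of 0), in percent on the horizontal axis, for 11 lists and 4 comparisons. Dotted lines give the shares over all 9429 tested genes. The folding members have no bar to the right of 0 in any of the 4 comparisons, and neither have the cytosolic chaperones for MYF5 over IgG in differentiation medium.

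Of the sensors and their proteases, 5 of 6 genes were on the array and 4 were tested. Eif2ak3 encodes PERK and averaged 8.52 ± 0.22 in DM_MYF5 and 7.26 ± 0.09 in DM_IgG, then 8.14 ± 0.22 in GM_MYF5 and 7.95 ± 0.25 in GM_IgG (log2, SD, n = 4 each). It rose by 1.26 with anti-MYF5 in differentiation medium (limma adjusted p = 4e-07), the change in growth medium was 0.18 (adjusted p = 0.31), and the difference between media was 1.07 (adjusted p = 0.0035). That difference was 0.64 (adjusted p = 0.22) with median scaling. Mbtps1 and Mbtps2 encode the site-1 and site-2 proteases that cut ATF6. Mbtps1 rose by 0.61 with anti-MYF5 in growth medium (adjusted p = 0.00022), and Mbtps2 by 0.32 in differentiation and 0.52 in growth medium. Without DM_MYF5 replicate 4 the Mbtps2 change in differentiation medium was 0.23 (adjusted p = 0.14). Atf6b, a relative of ATF6, was not called with anti-MYF5 but was called lower in differentiation than in growth medium, with log2 differences of -1.01 in MYF5 and -0.72 in IgG precipitates, the IgG one being -0.44 (adjusted p = 0.12) without scaling. The Ern1 (IRE1) probe was not tested.

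Of 10 tested cofactors of BiP and GRP94, 5 were called higher in the anti-MYF5 precipitates of differentiation medium and 3 lower, and 4 and 4 in those of growth medium. Dnajc10, a BiP cochaperone that reduces disulfides, rose by 0.96 and 0.90 in differentiation and growth medium, and Cnpy2 fell by 0.92 and 1.18. Sec63, the translocon's J-domain partner of BiP, changed by -0.46 and -0.47, and was called in both media. Between media Creld2 was the lowest of this list in differentiation medium, at -1.74 in MYF5 and -1.63 in IgG precipitates, and Sil1, a nucleotide exchange factor of BiP, the highest, at 0.96 and 1.02. In all, 2 of the 10 were higher and 6 lower in MYF5 precipitates, and 2 higher and 7 lower in IgG precipitates.

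Of 11 other tested disulfide enzymes, 4 were called higher and 3 lower with anti-MYF5 in differentiation medium, and 6 higher and 3 lower in growth medium. Txndc5 rose by 1.18 and 1.27 in the 2 media, and P4hb, the founding protein disulfide isomerase, by 0.52 in growth medium (limma adjusted p = 0.00032) with 0.06 (adjusted p = 0.67) in differentiation medium. Ero1b, an oxidase of disulfide isomerases, rose by 0.63 in differentiation medium, while Erp44, which retains its clients in the early secretory pathway, changed by -0.95 in growth medium. Between media 1 was higher and 7 lower in MYF5 precipitates, and 1 higher and 8 lower in IgG precipitates. The higher one was Tmx4, at 1.42 and 1.51. Of 2 thioredoxin-like proteins, Txndc12 was at -1.06 and -1.50, and Erp29 at -0.78 and -0.90, all called.

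Of 11 tested genes of glycan addition and the calnexin cycle, 4 were called higher and 4 lower with anti-MYF5 in differentiation medium, and 3 higher and 2 lower in growth medium. Ostc and Stt3b, subunits of the oligosaccharyltransferase, rose by 1.27 and 0.49 in differentiation medium and 0.85 and 0.63 in growth medium. Prkcsh, the glucosidase II beta subunit, changed by -0.95 in differentiation medium, and Dad1, another oligosaccharyltransferase subunit, by -0.93 in growth medium. Ddost and Rpn2, of the same enzyme, were lower in differentiation than in growth medium, with log2 differences of -1.63 and -1.10 in MYF5 precipitates and -1.47 and -0.49 in IgG precipitates.

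Of 14 tested genes of endoplasmic reticulum-associated degradation, 5 were called higher and 3 lower with anti-MYF5 in differentiation medium, and 4 higher and 5 lower in growth medium. Syvn1, the ubiquitin ligase HRD1, rose by 1.23 (limma adjusted p = 8.1e-09) and 0.99 (adjusted p = 5.8e-08) in differentiation and growth medium. Ube2g2, a ubiquitin-conjugating enzyme of the pathway, rose by 1.37 in growth medium, whereas Vcp, the ATPase that extracts substrates, changed by -1.17 in differentiation medium. Herpud1, a stress-induced component, was higher in differentiation than in growth medium by 1.14 in MYF5 and 1.28 in IgG precipitates. Edem1, a mannosidase-like factor, was lower in MYF5 precipitates at -0.90, and Derl2, of the export channel, in IgG precipitates at -1.04.

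Of 18 tested translocon and signal peptidase genes, 6 were called higher and 5 lower with anti-MYF5 in differentiation medium, and 5 higher and 9 lower in growth medium. Ssr3 and Ssr4 are subunits of 1 translocon-associated complex and changed in opposite directions, Ssr3 by 1.18 and 0.64 and Ssr4 by -1.10 and -1.51 in differentiation and growth medium. Sec61b, a channel subunit, changed by -0.57 and -1.30, and its difference between media was 0.73 (limma adjusted p = 0.027). That of Ssr3 was 0.54 (adjusted p = 0.049), and both lost their call with median scaling (0.37 and 0.28). Among several arrays whose omission ended these calls, leaving out GM_MYF5 replicate 1 gave 0.61 (adjusted p = 0.059) for Sec61b, and leaving out DM_IgG replicate 4 gave 0.46 (adjusted p = 0.098) for Ssr3. Between media Sec11a and Ssr2 were lowest in MYF5 precipitates, at -0.80 and -0.78, and Ssr2 and Sec11c in IgG precipitates, at -1.33 and -0.94. Srp14, of the signal recognition particle, was higher in differentiation medium by 0.60 and 0.53 in MYF5 and IgG precipitates.

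Of 20 tested genes of the PERK and ATF4 branch, 5 were called higher and 7 lower with anti-MYF5 in differentiation medium, and 6 higher and 5 lower in growth medium. Ddit4, an inhibitor of mTORC1, rose by 1.58 in differentiation medium, and Sesn2, which senses leucine, by 1.13 in growth medium, where it was 0.49 (limma adjusted p = 0.12) with the Actb probe gap as a covariate. Asns, asparagine synthetase, changed by -1.13 in differentiation medium and Nupr1, a stress-induced chromatin protein, by -1.48 in growth medium. Eif4ebp1, a repressor of cap-dependent translation, changed by -0.43 and -0.76 and was called lower in both media. Atf5, a relative of ATF4, was called lower in growth medium at -0.40, beside -0.17 in differentiation medium. Between media 4 were higher and 11 lower in MYF5 precipitates, and 3 higher and 11 lower in IgG precipitates. Vldlr, a lipoprotein receptor, was the highest, at 4.86 and 4.58, followed by Nupr1 at 1.89 and 1.45.

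Chaperones of other compartments were set beside these. Of 23 tested cytosolic chaperone genes, 0 were called higher and 15 lower with anti-MYF5 in differentiation medium, with a median of -0.42, and 2 were called higher and 12 lower in growth medium, with a median of -0.29. All tested genes were 27.7% higher and 26.6% lower in differentiation medium, and 26.3% higher and 22.4% lower in growth medium. The growth medium count of lower genes was 6 with median scaling, 4 without scaling and 5 with the Actb probe gap as a covariate. Of all 9429 tested genes 1142, 776 and 1895 were lower under these 3 settings, beside 2110 in the main fit. Hspa4 and St13, cofactors of HSP70, changed by -1.37 and -1.23 in differentiation medium and -1.19 and -1.53 in growth medium. Hspa8, the constitutive HSP70, was not called in either medium (-0.10 and 0.16). The differences between media of Cct6a, a subunit of the chaperonin TRiC, and of Bag3, an HSP70 cofactor, were -0.75 (limma adjusted p = 0.0086) and -0.51 (adjusted p = 0.044). Of 8 mitochondrial chaperone genes, 1 was higher and 5 lower in differentiation medium and 1 higher and 3 lower in growth medium. Clpp, a matrix protease, changed by -1.02 and -1.58, and was called in both media. Hspa9, the mitochondrial HSP70, was called lower in differentiation medium at -0.45, beside -0.02 in growth medium, and the chaperonin Hspd1 was called in neither (-0.35 and -0.25). The difference between media of Clpx, a partner of Clpp, was -0.68 (limma adjusted p = 0.028). Several single arrays ended the calls of Bag3 and Clpx: the Bag3 difference was -0.43 (adjusted p = 0.1) without DM_IgG replicate 1, and the Clpx difference -0.62 (adjusted p = 0.059) without DM_IgG replicate 4.

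The endoplasmic reticulum stress element was present in 5 of 85 promoters of the other lists' genes, those of Dnajc3, Creld2, Ero1b, Syvn1 and Derl3, of which 4 were tested. These genes are named for that element. With anti-MYF5, Dnajc3, an inhibitor of PERK and cochaperone of BiP, rose by 0.70 in differentiation and 0.56 in growth medium, Ero1b by 0.63 and 0.49, and Syvn1 by the values given above. Creld2 was not called (0.11 and 0.23). The 4 tested members with the element, Hspa5, Hsp90b1, Calr and Pdia6, had changes of -0.59, -0.99, -0.81 and 0.02 in differentiation medium. In growth medium they had -0.81, -0.57, -0.15 and 0.10. Genes with this element thus lay on both sides of 0, and a relation of the element to recovery was not tested.

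For each member the 2 tested genes with the smallest root mean square difference of centred log2 signals over the 16 arrays were Lamb1 (0.126) and Vapa (0.158) for Hspa5, Lig1 (0.197) and Srpk1 (0.206) for Hsp90b1, and Eif3b (0.192) and Gripap1 (0.195) for Calr. For the disulfide isomerases they were Rrp1b (0.237) and Gabpa (0.265) for Pdia3, Ints3 (0.118) and Aacs (0.139) for Pdia4, and Rrs1 (0.153) and Gtf3c2 (0.155) for Pdia6. For the factors they were Cdk20 (0.126) and Ikbkg (0.134) for Xbp1, Samd10 (0.125) and Pon2 (0.133) for Atf4, and Mea1 (0.112) and Rnaset2b (0.122) for Ddit3. No gene of the endoplasmic reticulum lists is among these 18 neighbours. Those lists hold only 88 of the 9429 tested genes, so this absence is no result about the members.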

How the data were processed

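RNA of 16 immunoprecipitates was measured on single-colour Illumina mouse bead arrays after amplification from an oligo-dT primer, per the labels' protocols. The deposited table holds, by probe and array, an intensity that was not normalized between arrays and its detection p-value; GenomeStudio 2011.1 made it, per the submitters' processing notes. The deposited series values are a score equal to the z-score of the log10 signal of an array, to within 5e-10, and served as an alternative. Signals were corrected by normexp with the control distribution inferred from detection p-values, with an offset of 16 that understates the changes of dim probes, then quantile normalized and taken to log2 (limma 3.58.1, R 4.3.3). Quantile scaling makes every change relative to the other RNAs.

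Probes detected at p under 0.05 on at least 4 arrays were tested in 1 model over all 16 arrays (lmFit, eBayes with trend, 12 residual degrees of freedom). A gene stands by its tested probe with the highest mean. Platform symbols were updated through Entrez identifiers for 23962 probes; 23978 probes had 1 symbol, 0 several and 1719 none. On simulated data for the growth medium comparison, 100 of 100 probes changed by 1 and 46 of 100 changed by 0.5 on the log2 scale were recovered, with 8 false calls among 13884 probes. Only 100 probes of each size were changed there, while 26.3% of tested genes were called higher and 22.4% lower in the data. The simulation therefore does not test how the calls depend on the scaling.

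Alternatives were other scalings, offsets, filters, array weights, a replicate block and leaving out each array. The Actb covariate was added after seeing the data, and it cannot be fully separated from the antibody, with which it goes. The members, lists and tests were chosen with earlier results of these data known. Beside the members, the text names from each list the 2 tested genes with the highest mean signal, up to 2 called genes with the largest change per comparison, and all sensors; not all are printed with every value. No chip or slide is stated, and the precision is limited by the number of arrays. Array annotation gives gene names only, and RefSeq's GRCm38.p6 supplied promoters.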

Additional observations from a re-analysis of the deposited data

Results flagged for a closer look

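Within groups of 4 arrays, 5 of 40 member groups held an array apart from the other 3 by Dixon's criterion, which chance meets in about 5% of groups, or 1 in 20. Hspa5 was 6.081 on DM_MYF5 replicate 1, where the others were 5.882 to 5.905. Calr was 7.548 on DM_MYF5 replicate 4, where the others were 6.755 to 6.849. Xbp1 was 12.67 on DM_MYF5 replicate 3 and 12.61 on DM_IgG replicate 4, where the others of each group reached 12.47. The first Ddit3 probe was 7.894 on DM_MYF5 replicate 1, where the others were 8.139 to 8.157. The 4 values in DM_MYF5 fell on 3 different arrays.

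The change of MYF5 over IgG differed between the media, by limma's test of the difference, for 6 of the 119 tested genes of the other lists, where 5.77% of all tested genes were called, so their number is no result about these lists. The DM minus GM difference was 1.071 for Eif2ak3, 0.7285 for Sec61b and 0.5392 for Ssr3. It was -0.7456 for Cct6a, -0.5073 for Bag3 and -0.6795 for Clpx. None of the 9 members was called in that test.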

How the results depend on the processing

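Of 28 alternatives, none turned the direction of a called member or of 78 named changes of other genes. Those 78 are the largest called changes of each list and comparison, so calls printed for other reasons are not covered. Median scaling gave 4 calls for MYF5 over IgG in both media, 2 for the difference between media (0 in the report) and 1 for DM over GM in IgG precipitates (4 in the report), and no scaling gave the same 2 and 1. For the difference between media, all 9429 tested genes had 48 higher and 525 lower with median scaling and 23 and 697 without scaling, beside 232 and 312 in the report. The difference between media also had 1 call with the deposited z-scores, 3 with array weights and 1 with the Actb probe gap. With that covariate MYF5 over IgG in growth medium had 2 calls (4 in the report). The cause of these shifts was not tested. Same-numbered MYF5 and IgG deviations correlated at 0.37, 0.42, 0.02 and 0.26 in differentiation medium and 0.33, 0.29, 0.01 and 0.61 in growth medium for numbers 1 to 4. In differentiation medium 6 of 8 arrays, and in growth medium 5 of 8, correlated best with their own number, a hint from the data and not from the labels. Because number 3 showed next to none, the numbers were not taken to pair the arrays. With the replicate block the difference between media had 1 call and DM over GM in IgG precipitates had 7, and MYF5 over IgG had 4 in growth and 7 in differentiation medium. Pdia3 and Pdia4 were then added to the calls for MYF5 over IgG in differentiation medium (adjusted p = 0.036 and 0.034), and Hsp90b1, Pdia4 and Pdia6 to those for DM over GM in IgG precipitates (adjusted p = 0.015, 0.042 and 0.043). Leaving out each array gave 3 to 5 calls for MYF5 over IgG in growth medium and 4 to 6 in differentiation medium. It gave 0 to 1 for the difference (1 without GM_IgG replicate 4 and 1 without DM_MYF5 replicate 4). For DM over GM it gave 4 to 7 in IgG precipitates (7 without GM_IgG replicate 4) and 4 to 6 in MYF5 precipitates. With median and without scaling, lower genes of the other endoplasmic reticulum and stress lists numbered 15 and 10 (28 in the report) for MYF5 over IgG in growth medium and 29 and 17 (50) for DM over GM in IgG precipitates, and higher ones 11 and 7 (17) for DM over GM in MYF5 precipitates. Over all 9429 tested genes the corresponding counts were 1142 and 776 (2110), 2032 and 1495 (3209), and 2015 and 1836 (2722). Among 78 named changes of other genes, 2115 of 2178 alternative values kept their call and 63 lost it. Signals near background, as for Canx, limit what can be read.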
